A study of Mus musculus with 10 samples.

Results

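The genes described here are 9 transcription factor genes of the caudal end of the embryo and of its axial progenitors: Cdx1, Cdx2, Cdx4, T, Tbx6, Msgn1, Nkx1-2, Evx1 and Gbx2. They were taken by mouse gene symbol from 4 RNA-seq count tables of 52636 Ensembl gene identifiers each, and all 9 symbols matched 1 identifier. The libraries were made from E14, a line of embryonic stem cells derived from the mouse blastocyst. Cells were grown with LIF, a MEK inhibitor and a GSK inhibitor, then moved to medium without these factors and given retinoic acid at a labelled dose of 2 µM for 24 h. The groups were unedited cells (WT) and cells labelled CBE-KO, in which a CTCF binding element near HoxA was removed, with 2 libraries per group. Both groups received retinoic acid, and no untreated library was part of the comparison, so the response to retinoic acid itself was not measured. The labels do not say whether CBE-KO was 1 clone or several, nor whether replicates were separate cultures, so p-values measure the spread between these libraries, which may be technical.

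As background, Cdx1, Cdx2 and Cdx4 encode the caudal homeodomain proteins, which are switched on in the posterior embryo by Wnt, FGF and retinoic acid signals and act upstream of Hox genes. T (Brachyury) marks the primitive streak and the bipotent progenitors that build the trunk and tail. Tbx6 and Msgn1 commit these progenitors to presomitic mesoderm, Nkx1-2 marks the caudal lateral epiblast, Evx1 the streak, and Gbx2 the territory behind the midbrain, where it opposes Otx2. Cdx2 is also a trophectoderm factor and Gbx2 is also expressed in pluripotent stem cells, where it lies downstream of LIF and Stat3.

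Of the 9 genes, 2 changed. Cdx1 was 1.25-fold higher in CBE-KO and Gbx2 fell to 34.2% of its WT level. Cdx2, T and Tbx6 had mean levels of 1.04 to 2.13 CPM (counts scaled to a common library size) and did not pass. Cdx4, Nkx1-2, Evx1 and Msgn1 had too few counts to be tested, and the last 2 lay at or under 3 counts in every library. Thus 2 of 5 tested genes passed, 1 in each direction, against 43.1% of all 16005 tested genes (21.6% higher and 21.5% lower).

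The promoter sequence of Gbx2 is shown because Gbx2 had the largest absolute log2 fold change of the 5 tested genes. It is the 250 bases before the RefSeq gene start at chr1:89931177-89931426 on the minus strand (GRCm38.p6), 5′ to 3′, with capitals for the match to the GC box core GGGCGG, the motif found in it among those searched.
Gbx2: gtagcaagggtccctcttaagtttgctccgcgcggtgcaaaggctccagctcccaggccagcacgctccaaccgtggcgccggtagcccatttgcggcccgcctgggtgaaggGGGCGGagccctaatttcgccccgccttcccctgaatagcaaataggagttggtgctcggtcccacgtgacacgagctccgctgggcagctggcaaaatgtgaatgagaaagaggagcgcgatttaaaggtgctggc

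Windows of 300 bases, 250 before the start and 50 after it, were found in the RefSeq table for 8 of the 9 genes (all but Cdx1). The Msgn1 model spans 567 bases and begins with the letters ATG. Its start may thus be the start codon, not the transcription start. Both strands were searched for the nuclear receptor half-site AGGTCA and for its variant AGTTCA. Direct repeats DR1, DR2 and DR5 were searched with the looser half-site RGKTCA, where R is A or G and K is G or T. Both strands were also searched for the TCF/LEF core CTTTGA, the Cdx core TTTATG, the T-box core GGTGTG, the CCAAT box and the GC box core GGGCGG. The TCF/LEF core, the letters bound by the Wnt effectors, was present in 2 of the 8 windows, those of T and Msgn1, and in 16.0% of all 32851 windows. The same 2 windows held the Cdx core (11.9% of all windows) and AGTTCA (14.0%), and 1 of the AGTTCA matches in Msgn1 overlaps a TCF/LEF match. AGGTCA was in none of the 8 (16.3% of all windows), and none held a direct repeat, which 0.222%, 0.268% and 0.0974% of all windows did for DR1, DR2 and DR5. The T-box core lay in the window of Evx1 (19.0% of all windows), the CCAAT box in those of Cdx2, Cdx4, Nkx1-2 and T (37.4%), and the GC box core in those of Gbx2, Nkx1-2 and T (35.7%). The TCF/LEF matches are shown in 30-base stretches because T and Msgn1 are textbook Wnt targets, with the core in capitals on whichever strand it lies.
T, chr17:8434177-8434206, plus strand: ctgctcggtactTCAAAGggtgtcccgccc
Msgn1, chr12:11209133-11209162, minus strand: agatgctaattaTCAAAGaggggaaagtga
Msgn1, chr12:11209074-11209103, minus strand: ccttggttcttcCTTTGAactccctccacc
These matches describe letters only and the counts do not bear on binding. The Gbx2 window was rich in CpG, with 64.7% G and C and an observed over expected CpG ratio of 0.86, against medians of 52.7% and 0.38 over all windows. The windows of Cdx2, Evx1, Nkx1-2, T and Cdx4 had ratios of 0.43 to 0.73, also above the median. That of Nkx1-2 had more G and C than Gbx2 (67.3%). Ratios for Tbx6 and Msgn1 were 0.29 and 0.20.

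The libraries held 14108038 to 15632960 counts, at which 3 counts correspond to 0.185 to 0.218 CPM (after correction of library sizes by trimmed means of M-values, TMM). Libraries of a group differed by more than sampling noise (chi-square per degree of freedom of 3.40 in WT and 2.70 in CBE-KO), so no pair was counted as 1 sample. This does not show that they came from separate cultures. The stem cell genes Pou5f1, Nanog and Sox2 were abundant in all 4 libraries, with at least 3827 counts each. Y-linked transcripts were nearly lacking in WT (Ddx3y had 6 and 5 counts) and present in CBE-KO (920 and 822 counts), so the groups differed by more than the removed element. The part of this in the differences below was not tested.

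**Figure D1:**
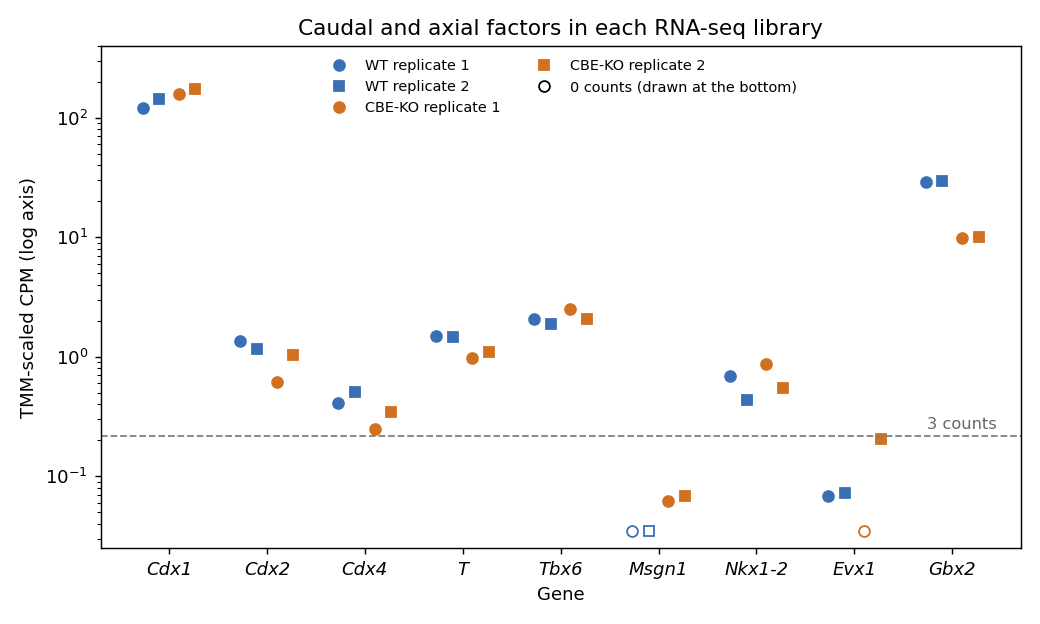
TMM-scaled CPM on a log axis for each of the 9 genes, with 1 point per library (blue WT, orange CBE-KO; circles replicate 1, squares replicate 2). The dashed line marks 3 counts in the library where that is highest, open symbols at the bottom are 0 counts, and of the 5 tested genes Gbx2 shows the widest gap between groups, 28.9 and 29.4 against 9.86 and 10.0 CPM.

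Cdx1 (ENSMUSG00000024619, chromosome 18) encodes the caudal protein best known as a direct target of retinoic acid. Its counts were 1783 and 1970 in WT against 2567 and 2522 in CBE-KO, or 122.0 and 143.2 CPM against 158.2 and 173.3 CPM. Both CBE-KO libraries lay above both WT libraries, while the WT replicates differed from each other by more than the gap between the groups. The group means were 133 ± 15.0 and 166 ± 10.7 CPM (SD, n = 2 each). The difference came to 0.32 ± 0.07 on the log2 scale (SE; adjusted p = 0.000729 in edgeR), with a 95% interval of 0.18 to 0.46. Among all tested genes, 3972 had a log2 fold change at least as high. The size rests partly on WT replicate 1: without it the log2 fold change was 0.21 (adjusted p = 0.00145 in edgeR), and without WT replicate 2 it was 0.44. A RefSeq model, Gm52351, overlaps Cdx1 by 624 bases, and reads from the overlap cannot be assigned without knowing the use of strand.

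Cdx2 (ENSMUSG00000029646, chr5:147300900-147307249) encodes the caudal protein of the trophectoderm, the posterior embryo and the intestine. WT libraries had 20 and 16 counts and CBE-KO libraries 10 and 15, or 1.37 and 1.16 CPM against 0.616 and 1.03 CPM. Both CBE-KO libraries lay below both WT libraries, yet the spread within CBE-KO was wider than the gap to WT. Its log2 difference, -0.63 ± 0.44 (SE; adjusted p = 0.258 in edgeR), did not pass, and its 95% interval of -1.56 to 0.28 includes both a loss of more than 2-fold and a slight gain. Cdx4 (ENSMUSG00000031326, chrX:103321398-103330224), the caudal gene of the tail bud, was counted 6 and 7 times in WT and 4 and 5 times in CBE-KO. It was lower in both CBE-KO libraries but not tested. The ratio of its summed counts, CBE-KO over WT, was 0.638, with an exact 95% interval of 0.241 to 1.61 that covers counting error only. The direction recorded for Cdx1 was therefore not shared by Cdx2 and Cdx4 in their measured values. The intervals of Cdx1 and Cdx2 overlap between 0.18 and 0.28, and whether the 2 genes differ in their change was not tested.

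T (ENSMUSG00000062327, chr17:8434423-8442496) gave 22 and 20 counts in WT and 16 in each CBE-KO library, or 1.51 and 1.45 CPM against 0.986 and 1.10 CPM. Both CBE-KO libraries were lower. On the log2 scale T differed by -0.51 ± 0.38 (SE; adjusted p = 0.306 in edgeR), with a 95% interval of -1.32 to 0.30. Its gene span overlaps another RefSeq model, LOC115486424, by 106 bases. Tbx6 (ENSMUSG00000030699, chr7:126781483-126785548), the T-box gene that directs progenitors away from a neural fate, gave 30 and 26 counts in WT against 41 and 30 in CBE-KO. In CPM these were 2.05 and 1.89 against 2.53 and 2.06, so the groups did not overlap but nearly touched. The log2 difference was 0.22 ± 0.30 (SE; adjusted p = 0.589 in edgeR), with a 95% interval of -0.41 to 0.86. Without CBE-KO replicate 1 it was 0.062. The interval of T thus reached a loss of more than 2-fold, while that of Tbx6 stayed within a 2-fold change either way.

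All 5 tested genes had groups that did not overlap, but so had 70.4% of all tested genes. CBE-KO lay above WT for Cdx1 and Tbx6 (36.5% of all tested genes did) and below WT for Cdx2, T and Gbx2 (33.9%). Of 1642 tested genes with a mean between 1.04 and 2.13 CPM, the range of Cdx2, T and Tbx6, 22.6% passed in edgeR. Of 11121 genes with a mean of at least 5 CPM, as for Cdx1 and Gbx2, 50.6% passed.

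**Figure D2:**
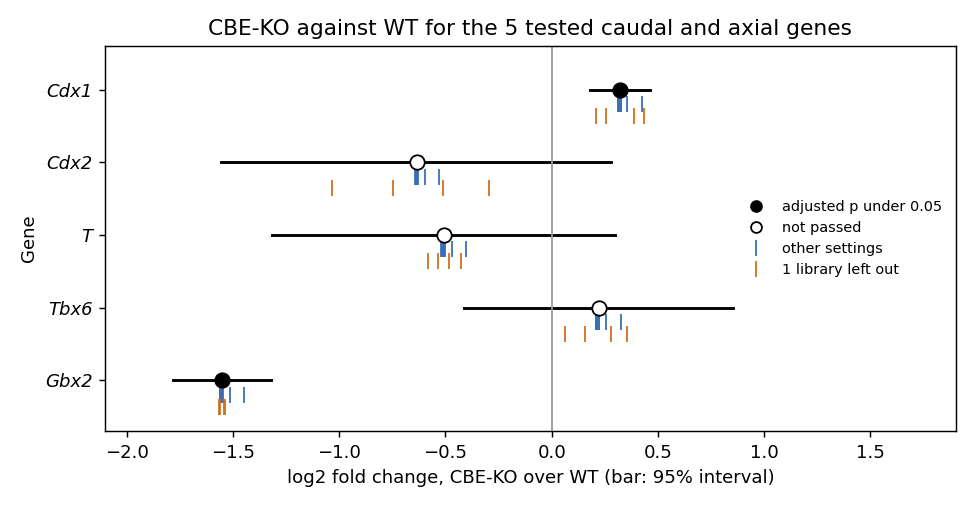
Log2 fold change of CBE-KO over WT for the 5 tested genes, with 95% intervals as bars and filled points where the edgeR adjusted p was under 0.05. Ticks below each bar give the value under other settings (blue) and with 1 library left out (orange), and only the bars of Cdx1 (0.18 to 0.46) and Gbx2 (-1.78 to -1.32) stay clear of 0.

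Nkx1-2 (ENSMUSG00000048528, chr7:132596239-132599637) fell just short of the expression filter, which asks for about 0.679 CPM of the library total in 2 libraries. Its counts, 10 and 6 in WT against 14 and 8 in CBE-KO, overlapped between the groups. The ratio of summed counts was 1.27 (exact 95% interval 0.636 to 2.58, counting error only). Evx1 (ENSMUSG00000005503, chr6:52313498-52318389) lies beside the HoxA cluster, with Hoxa13 as its protein-coding neighbour on the lower side at 52618 bases. Evx1 was counted 1 and 1 times in WT against 0 and 3 times in CBE-KO. Its overlapping noncoding partner Evx1os had 0 and 0 against 2 and 2. Hoxa13, at 4 and 0 counts in WT against 14 and 4 in CBE-KO, was not tested either. Hibadh, the neighbour of Evx1 on the other side at 227841 bases, differed by 0.01 ± 0.06 on the log2 scale (SE; adjusted p = 0.942 in edgeR). Msgn1 (ENSMUSG00000047002, chr12:11208382-11208948) was absent from both WT tables (0 and 0 counts) and had 1 and 1 counts in CBE-KO. For Evx1 and Msgn1 no fold change is given, since neither group exceeded 3 counts in any library.

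Gbx2 (ENSMUSG00000034486, chr1:89927962-89931176) was counted 422 and 404 times in WT against 160 and 146 times in CBE-KO. The levels were 28.9 and 29.4 CPM in WT and 9.86 and 10.0 CPM in CBE-KO, with replicates close together and a wide gap between the groups. The means were 29.1 ± 0.347 and 9.95 ± 0.124 CPM (SD, n = 2 each). The log2 difference was -1.55 ± 0.11 (SE; adjusted p = 5.77e-09 in edgeR), with a 95% interval of -1.78 to -1.32, so that Gbx2 kept 34.2% of its WT level (95% interval 29.1% to 40.1%). Only 164 of the 16005 tested genes had a log2 fold change as low or lower. Its protein-coding neighbour Agap1, 32680 bases away, differed by -0.07 ± 0.07 on the log2 scale (SE; adjusted p = 0.449 in edgeR), and Asb18 on the other side had 2, 0, 3 and 2 counts. Over the 4 libraries, the genes with the most similar pattern to Gbx2 were Cyp2b23, Plcd1 and Ceacam20, with root-mean-square differences of 0.038, 0.047 and 0.052 in centred log2 CPM among 11113 genes compared. For Cdx1 they were Arid3a, Plxna3 and Zfp704, at 0.0047, 0.0095 and 0.012. With 4 libraries in 2 groups, such likeness mainly records a similar difference between the groups.

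**Figure D3:**
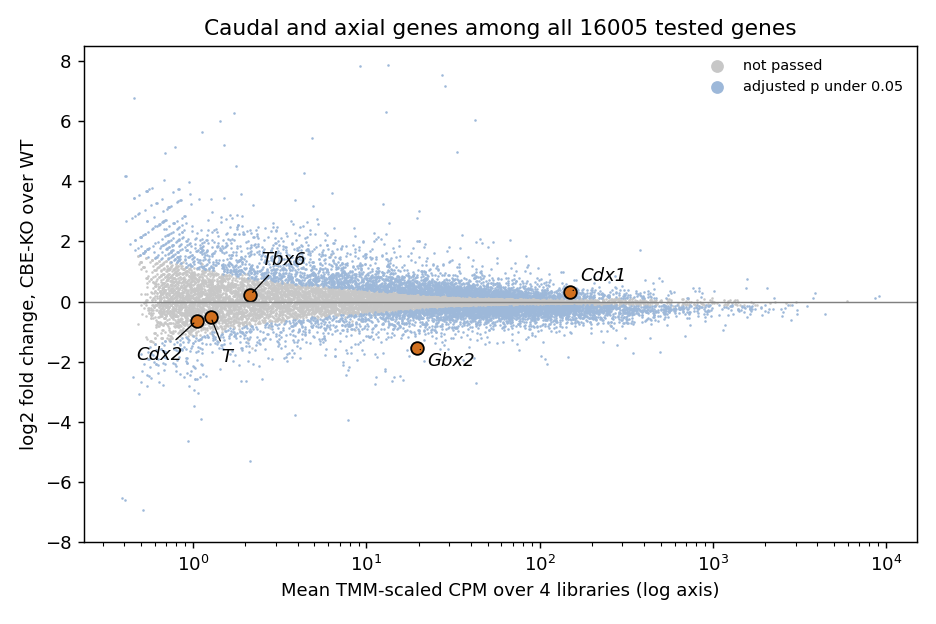
Log2 fold change of CBE-KO over WT against mean TMM-scaled CPM (log axis) for the 16005 tested genes, blue where the edgeR adjusted p was under 0.05 and grey otherwise, with the 5 tested caudal and axial genes in orange. Cdx2, T and Tbx6 lie in the grey region at low CPM, Cdx1 lies at the upper edge of it at high CPM, and Gbx2 lies well below it at -1.55.

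The protein-coding neighbours of the 9 genes were examined after the values had been seen, to set each gene beside its surroundings. They were the next RefSeq protein-coding genes whose symbol matched a counted identifier. The models Gm52351 and LOC115486424, which overlap Cdx1 and T and are also labelled protein-coding, were not among them. Of 18 neighbours, 13 were tested, 6 rose and 3 fell, beside 21.6% of all tested genes higher and 21.5% lower. The largest change was that of Kcns3 beside Msgn1, higher by 2.08 on the log2 scale (edgeR adjusted p = 0.00338). Its counts were 3 and 7 in WT against 29 and 18 in CBE-KO, so it passed the expression filter only through CBE-KO. The log2 fold change of Kcns3 ranged from 1.56 to 2.83 when 1 library was left out. Both neighbours of Cdx1 rose by more than Cdx1 did. Slc6a7, a proline transporter gene 4446 bases away, rose by 1.06 ± 0.22 on the log2 scale (SE; adjusted p = 0.000676 in edgeR), from 48 and 40 counts to 98 and 101. Pdgfrb, the gene of a growth factor receptor 8928 bases away on the other side, rose by 0.83 ± 0.11 (SE; adjusted p = 8.54e-06 in edgeR), from 195 and 205 counts to 412 and 362. Both neighbours of Nkx1-2 rose as well, Oat by 0.49 and Lhpp by 0.63. Of the neighbours of Cdx4 on the X chromosome, Nap1l2 fell by 0.95 on the log2 scale. Chic1 fell by 0.24 (adjusted p = 0.0447 in edgeR), a call lost in 8 of 12 alternatives, among them DESeq2 (adjusted p = 0.204) and the omission of any 1 library. The neighbours of Tbx6 went opposite ways, with Ypel3 higher (0.51) and Ppp4c lower (-0.20), the latter not with library totals alone.

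Signals that act on these genes were taken from lists of ligands, receptors and targets. Among 24 posterior Wnt and FGF genes, 18 were tested, 4 rose, 8 fell and 6 did not pass, with a median log2 fold change of -0.35, beside 0.0067 over all tested genes. The share that passed was 66.7%, beside 43.1% of all tested genes. DESeq2 called 1 as higher and 8 as lower. The Wnt ligands of the streak were scarce. Wnt3a was counted 9 and 8 times in WT against 5 and 1 times in CBE-KO, Wnt3 had 5, 3, 3 and 0, and the Wnt target Sp5 had 0, 0, 2 and 3. Wnt8a fell by 1.40 on the log2 scale (edgeR adjusted p = 0.00109), from 45 and 55 counts to 20 and 21. The ERK feedback inhibitors Spry2 (-1.87) and Spry4 (-1.61), which FGF signalling induces, fell in the same direction as Gbx2. Fgf8, the FGF ligand of the streak and tail bud, went from 8 and 4 counts in WT to 13 and 22 in CBE-KO. Its rise of 1.42 passed in edgeR (adjusted p = 0.0422) and not in DESeq2 (adjusted p = 0.207), nor without either WT library or CBE-KO replicate 2. Lef1, a Wnt effector and target, did not pass (0.81, edgeR adjusted p = 0.236).

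Among 18 genes of retinoic acid synthesis, breakdown, binding and reception, 16 were tested, 8 rose, 5 fell and 3 did not pass. Their median log2 fold change was 0.30, beside 0.0067 over all tested genes. The share that passed was 81.2%, beside 43.1% of all tested genes and 50.6% of those with a mean of at least 5 CPM. DESeq2 called 8 as higher and 3 as lower. Cyp26a1, whose product clears retinoic acid and which is itself induced by it, rose by 1.70, from 2602 and 2451 counts to 9356 and 8458 (edgeR adjusted p = 3.57e-14). The synthesis gene Aldh1a2 rose by 1.53, the uptake receptor gene Stra6 by 1.39 and the receptor gene Rarb by 0.91. Rarg, the retinoic acid receptor of the tail bud, fell by 0.68 and Rxrg fell by 1.29, although Rxrg did not pass in DESeq2 (adjusted p = 0.109), nor without WT replicate 2 or either CBE-KO library. The rise of Cdx1 (0.32) was smaller than those of Cyp26a1, Aldh1a2, Stra6 and Rarb in measured size, and the differences between genes were not tested.

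Genes that textbooks place downstream of these factors were compared next. Of 39 Hox genes, textbook targets of Cdx proteins, 29 were tested, 22 rose, none fell in edgeR and 7 did not pass. The number changed lay between 16 and 26 over the alternatives tried, and neither an unadjusted p under 0.05 nor DESeq2 gave a Hox gene as lower. Of those tested, 75.9% passed, beside 43.1% of all tested genes, and the median log2 fold change was 1.22. The 4 highest were Hoxc8, Hoxc9, Hoxc6 and Hoxc10, which had at most 4 counts in any WT library and 27 to 58 in CBE-KO. These 4 genes passed the expression filter only through the CBE-KO libraries, so their place among the tested genes depended on the higher group. The removed element itself lies near HoxA. Effects on Hox genes of its removal, of Cdx proteins and of other differences between the groups, such as that in Y-linked transcripts, cannot be told apart here. None of these was tested. Presomitic and somite genes were listed for 19 members, of which only some lie downstream of T, Tbx6 and Msgn1. Of these 19, 11 were tested, 4 fell, none rose in edgeR and 7 did not pass. The share that passed, 36.4%, lay below the 43.1% of all tested genes, and the median log2 fold change was -0.13. None was higher at an unadjusted p under 0.05 or in DESeq2 either, and 2 were lower in DESeq2 and without either CBE-KO library. Rbpj, the Notch effector (-0.73), and Tcf15, a somite and epiblast factor (-0.53), fell. These 2 genes had WT means of 432 and 238 CPM. In the same WT libraries Msgn1 had 0 counts, and T and Tbx6 had 20 to 30. A link of these falls to T, Tbx6 or Msgn1 was not tested. Lfng (-0.67) and Snai1 (-0.41) also passed in edgeR and not in DESeq2 (adjusted p = 0.140 and 0.112), nor without either CBE-KO library or 1 of the WT libraries (replicate 1 for Lfng, replicate 2 for Snai1). The somite clock gene Hes7 had 0, 0, 1 and 4 counts.

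Among 16 primitive streak and node genes, which overlap the previous lists in part, 9 were tested, 3 rose, 1 fell and 5 did not pass (44.4% passed), and without CBE-KO replicate 2 the number changed was 2. The streak T-box gene Eomes went from 185 and 169 counts in WT to 219 and 189 in CBE-KO (0.09, edgeR adjusted p = 0.633), and Mixl1 had 8 and 6 against 20 and 15 (1.19, edgeR adjusted p = 0.0545, passing with upper-quartile scaling or library totals alone). Chrd rose by 1.23, Lefty1 rose by 0.31 (not without CBE-KO replicate 2) and Tdgf1 fell by 1.20. Of 18 other T-box, Evx, Gbx and Nkx1 family genes, 9 were tested and 1 rose (11.1%, beside 43.1% of all tested genes). This was Tbx15 (1.92), which DESeq2 left uncalled (adjusted p = 0.0620) and which did not pass without WT replicate 1 or CBE-KO replicate 1.

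**Figure D4:**
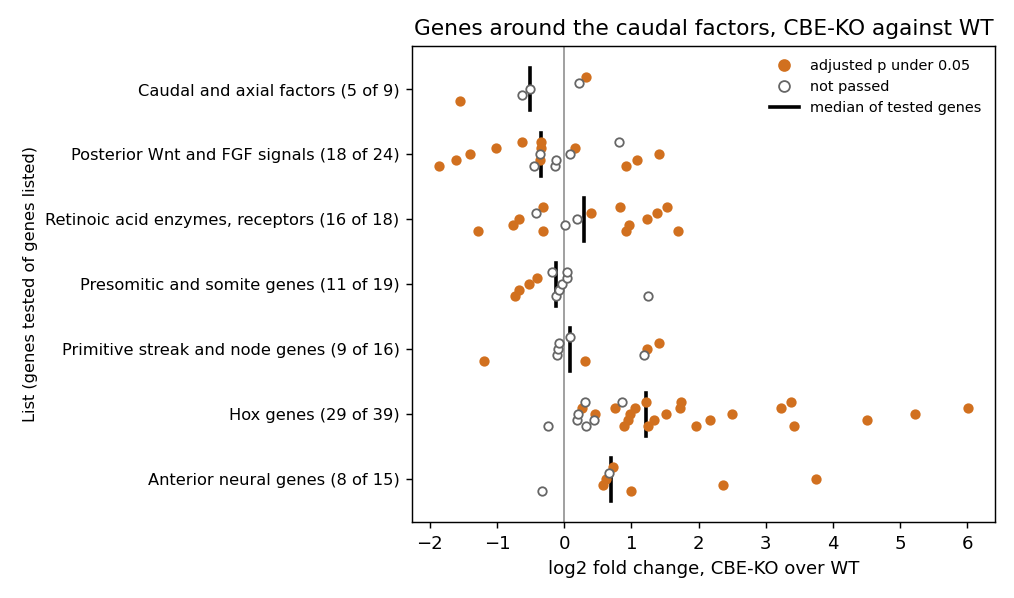
Log2 fold change of CBE-KO over WT for the tested genes of 7 lists, 1 point per gene (orange where the edgeR adjusted p was under 0.05, open otherwise), with the median of each list as a black bar. The Hox genes lie mostly to the right of 0 with a median of 1.22, and the caudal and axial factors spread from -1.55 to 0.32. The presomitic and somite genes that passed (4 of 11 tested) all lie to the left.

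Otx2, the anterior gene that Gbx2 opposes at the midbrain and hindbrain boundary, moved against Gbx2 in the counts, from 35 and 27 in WT to 57 and 54 in CBE-KO. The rise of 0.72 on the log2 scale passed in edgeR (adjusted p = 0.0354), and neither in DESeq2 (adjusted p = 0.205) nor without WT replicate 2 or either CBE-KO library. Of 15 anterior neural genes, 8 were tested, 6 rose in edgeR and 2 did not pass (75% passed, beside 43.1% of all tested genes). None was lower there, at an unadjusted p under 0.05 or in DESeq2, which called 3 as higher. Otx1 went from 0 and 3 counts in WT to 24 and 23 in CBE-KO, and Lhx2 rose by 1.00, a call that DESeq2 did not make (adjusted p = 0.105) and that was lost without WT replicate 2 or CBE-KO replicate 1. Some untested genes of the list, named after their values were seen, went the other way. Emx2 had 10 and 7 counts in WT against 1 and 1 in CBE-KO, and Hesx1 had 8 and 5 against 3 and 0.

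Markers of other cell types that express some of these genes were measured beside them. In bulk RNA, fewer cells of a type and less RNA per cell cannot be told apart. Of the tested markers, 53.3% passed for trophoblast, 50% for intestine and 62.5% for mesoderm. The shares were 66.7% for extraembryonic endoderm and 75% for neural progenitors. Beside these, 43.1% of all tested genes passed, and 50.6% of those with a mean of at least 5 CPM. The trophoblast and intestinal shares thus lay near those of all genes. Of 18 trophoblast markers, a list that includes Cdx2, 15 were tested, 4 rose and 4 fell, and their summed level was 153.1 to 165.3 CPM in WT and 152.9 to 153.8 CPM in CBE-KO. Without Krt8, the most abundant of them, the sums were 104.6 to 112.9 CPM and 94.5 to 95.9 CPM. Gcm1 (-2.14) and Ascl2 (-1.27) fell. Gata2 (1.04), Esx1 (0.67), Krt18 (0.41) and Krt8 (0.20) rose in edgeR and did not pass in DESeq2, the last 3 being named after their values were seen. Elf5 had 2, 3, 0 and 2 counts, and Tpbpa was at 0 in every library. Without WT replicate 2 or without CBE-KO replicate 2, 4 and 5 of these markers changed in place of 8, and DESeq2 called 4, all lower. Of 12 intestinal markers, 4 were tested and 2 fell, and Lgr5, Muc2, Fabp2 and Tff3 were at 0 in every library. Of 12 mesoderm markers, 8 were tested, 4 rose and 1 fell, at a summed 257.2 to 282.7 CPM in WT and 198.2 to 219.8 CPM in CBE-KO, and Osr1 was at 0. That lower sum came from Tcf15, and without it the sums were 30.7 to 32.4 CPM in WT and 41.8 to 45.4 CPM in CBE-KO. Of 18 extraembryonic endoderm markers, 15 were tested, 8 rose and 2 fell, at 471.5 to 488.6 CPM against 526.6 to 532.4 CPM. Of 14 neural progenitor markers, 8 were tested, 5 rose and 1 fell, at 62.5 to 63.1 CPM against 83.7 to 84.3 CPM, or 50.3 to 51.3 CPM against 50.7 to 52.0 CPM without Sox3. The sums without the most abundant gene were added after the values had been seen.

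Gbx2 is also a gene of the pluripotent state, so the 20 markers of that state were set beside it. Of these, 19 were tested, 3 rose, 11 fell and 5 did not pass. The share that passed was 73.7%, beside 43.1% of all tested genes and 50.6% of those with a mean of at least 5 CPM. The markers had a median of -0.33 and a summed level of 10177 to 10427 CPM in WT and 9455 to 9672 CPM in CBE-KO. Without Dppa5a, the most abundant of them and one that rose (0.28), the sums were 6737 to 6873 CPM and 5251 to 5367 CPM. Utf1 (-1.67), Tdgf1 (-1.20) and Nr0b1 (-1.04) fell furthest. Pou5f1 fell by 0.33 and Sox2 by 0.35, and Nanog was higher by 0.15, a rise that did not pass without either CBE-KO library. The part of these markers in the fall of Gbx2 was not tested.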

How the data were processed

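The authors deposited 1 table of raw read counts per RNA-seq library, with no normalization, per the values. The submitters' processing notes name HISAT2 2.1.0, HTSeq 0.9.1, DESeq2 1.18.1, Bowtie2 2.3.1 and mm10, without roles. The annotation release and the use of strand are not given in the sources used here, so overlapping, antisense and near-identical genes are uncertain. The 6 samples of Capture-C, which reads DNA contacts of chosen sites, were not used here. Coordinates and promoter sequences are from RefSeq on GRCm38.p6, the build that mm10 denotes.

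Genes were kept with filterByExpr (minimum count 10), scaled by TMM and tested with glmQLFit and glmQLFTest in edgeR 4.0.16 (R 4.3.3), two-sided, with Benjamini-Hochberg adjustment over 16005 genes and a threshold of 0.05. A gene could pass the expression filter through 1 group alone, as Fgf8, Otx1, Mixl1 and Tbx15 did through CBE-KO. Standard errors and 95% intervals were derived from the quasi-likelihood F statistic. On simulated counts for CBE-KO against WT over 16005 genes, 164 of 200 genes changed by a log2 fold change of 1 were recovered, with 3 calls among unchanged genes, and the intervals covered 95.0% of true values. The simulation gave every gene the same biological spread, drew the libraries independently and left all but those 200 genes unchanged. In the data 43.1% of genes passed and replicates may be technical, so these rates need not hold there. Intervals on summed counts and the 3-count floor cover counting error only.

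All 9 genes were named. From each list up to 4 passing genes with the largest absolute change were eligible, with a fixed set of ligands, receptors and enzymes, and for genes with a mean of at least 5 CPM the 3 nearest patterns (pseudocount 0.5 CPM). The genes and lists were chosen with earlier results of these data known. Alternatives were DESeq2 1.42.0, other scalings, filters and thresholds, robust moderation, the replicate number as a block, and leaving out each library.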

Additional observations from a re-analysis of the deposited data

How the results depend on the processing

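Cdx1 stayed higher and Gbx2 lower, past the threshold, under DESeq2, 3 other scalings, 2 other filters, robust moderation, the replicate block and the omission of each library. Their log2 fold changes ranged from 0.21 to 0.44 and from -1.56 to -1.45. Cdx2 (-1.03 to -0.30), T (-0.58 to -0.40) and Tbx6 (0.062 to 0.35) kept their sign and did not pass in any of these. With library totals alone, the median of all genes moved to 0.11 and 67.0% of changed genes were higher, against 50.2% with TMM. A minimum log2 change of 1 in either direction left 1 of the caudal and axial genes, Gbx2, with 0 higher, and 1383 of all genes (975 higher, 408 lower). DESeq2 called 4577 genes, 2047 of them higher. The cause was not tested. Leaving out 1 library gave 5492 to 6420 changed genes, 2692 to 3129 higher and 2800 to 3291 lower, with the lone library of a group assumed to vary like the other group. The libraries share only a replicate number. Same-numbered libraries had a correlation of deviations of 0.035, and the replicate block gave 7027 changed genes, 0.32 for Cdx1 and -1.55 for Gbx2. Of 67 other named or neighbouring genes that passed, 18 did not pass under at least 1 alternative. Dll1, which did not pass, was at -0.18 and ranged from -0.39 to 0.058 when 1 library was left out, positive without WT replicate 1. Hibadh and Agap1, which did not pass either, also changed sign. Hibadh, at 0.0069, became -0.0046 once scaled by median of ratios, -0.0045 under DESeq2 and -0.045 to 0.054 when 1 library was left out, and Agap1 was at 0.037 with library totals alone. In the other lists, 26 of 182 counts moved by more than 1.5 times. Among them, DESeq2 called 3 anterior neural, 3 mesoderm, 2 presomitic and 4 trophoblast genes, where edgeR called 6, 5, 4 and 8. At 10 to 41 counts per library, the 95% intervals of Cdx2, T and Tbx6 were -1.56 to 0.28, -1.32 to 0.30 and -0.41 to 0.86, so changes of those sizes remain possible.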
